A study of Mus musculus with 4 samples.

Results

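The 5p arms of miR-99a, miR-99b, miR-100, miR-125a and miR-125b, 5 of the 1247 mouse miRNAs on the array, were compared between CL-treated and vehicle-treated visWAT SVFs. They were chosen by name, as the miR-99, miR-100 and miR-125 arms whose genes lie beside let-7 genes. Earlier results of these data were known when they were chosen. The SVF is the stromal and vascular cell pellet that remains when floating adipocytes are removed from collagenase-digested fat. Both groups were female C57BL/6 mice aged 8 weeks, given either CL-316243 (CL), an agonist of the β3-adrenoceptor, at 1 mg/kg in PBS, or PBS alone as vehicle, for 3 days. The strain label reads C57/BL6, C57/BL7, C57/BL8 and C57/BL9 over the 4 samples while their husbandry text names C57/BL6 throughout. The labels give the injections as subcutaneous and the methods of the study as intraperitoneal. Each group had 2 single-colour arrays, each of RNA pooled from 5 mice, so the spread between arrays is that between pools.

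miR-125 is the mammalian counterpart of the worm timing miRNA lin-4, and let-7 is a timing miRNA of the same worm pathway. In mammals their genes sit in the same clusters together with miR-99 or miR-100, and each cluster can be transcribed as a common precursor from which separate hairpins are cut. miR-99 and miR-100 are known to repress the kinase Mtor and the receptor Igf1r, and miR-125b is known for roles in haematopoiesis and for restraining the formation of thermogenic adipocytes. A hairpin gives a 5p and a 3p arm, and in these genes the 5p arm is the one mostly loaded into the silencing complex.

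The mature sequences are shown because the arms fall into families by their seed, bases 2 to 8, which pairs with target mRNAs and is in capitals here. All 5 members matched the RefSeq table of build GRCm38.p6, as did all 25 arms of the lists used, and sequences run from 5′ to 3′.
mmu-miR-99a-5p: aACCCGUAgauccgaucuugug
mmu-miR-100-5p: aACCCGUAgauccgaacuugug
mmu-miR-99b-5p: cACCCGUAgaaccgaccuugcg
mmu-miR-125b-5p: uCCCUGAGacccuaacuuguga
mmu-miR-125a-5p: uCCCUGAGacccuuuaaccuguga
mmu-let-7c-5p: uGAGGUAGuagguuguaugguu
mmu-let-7a-5p: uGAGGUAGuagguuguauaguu
mmu-let-7e-5p: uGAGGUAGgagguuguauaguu
mmu-miR-10b-5p: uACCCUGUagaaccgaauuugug
miR-99a-5p, miR-100-5p and miR-99b-5p share one seed, and miR-125a-5p and miR-125b-5p another. miR-99a-5p and miR-100-5p differ at a single base, U16A, counted from 1 at the 5′ end of miR-99a-5p. miR-99a-5p and miR-99b-5p differ at 4 of 22 bases. miR-125a-5p has 24 bases and miR-125b-5p has 22, and they are identical over their first 13. The let-7 arms have a seed of their own, shared by all 9 let-7 family 5p arms compared here (let-7a to let-7g, let-7i and miR-98). miR-10b-5p resembles the miR-99 family in sequence, but it does not have the same seed.

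The genes form 3 clusters, all on the plus strand. On chromosome 16, miR-99a-5p (chr16:77598940-77598961), let-7c-5p from Mirlet7c-1 (chr16:77599672-77599693) and miR-125b-5p from Mir125b-2 (chr16:77646279-77646300) overlap no other annotated RefSeq gene. On chromosome 9, miR-100-5p (chr9:41531437-41531458), Mirlet7a-2 and miR-125b-5p from Mir125b-1 (chr9:41581940-41581961) lie within the long non-coding RNA gene Mir100hg. On chromosome 17, miR-99b-5p (chr17:17830194-17830215), let-7e-5p (chr17:17830366-17830387) and miR-125a-5p (chr17:17830817-17830840) lie within the protein-coding gene Spaca6. The mature miR-125b-5p of chromosomes 9 and 16 is the same sequence, so its signal does not tell the genes apart. The signals of let-7a-5p and let-7c-5p can likewise hold products of genes outside these clusters.

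All 4 arrays lay on 1 slide, with vehicle in row 1 and CL in row 2, so that slide row and treatment cannot be told apart. Column 3 held replicate 1 of each group and column 4 replicate 2. The slide column is therefore fitted as a block where given. The scanner software detected 386 to 431 miRNAs per array and no spot was saturated. Signals were background-corrected, quantile-normalized and summarised as log2 signals, and 425 miRNAs detected on both arrays of a group were tested by limma with Benjamini-Hochberg adjustment. None of the 425 (0%) passed an adjusted p of 0.05. At an unadjusted p of 0.05, 149 (35.1%) differed, 80 (18.8%) being higher and 69 (16.2%) lower after CL. By SAM, 60 passed there, and by the methods' t-test 52, with 0 after adjustment in either. The split between higher and lower was 46 and 88 without normalization between arrays, 47 and 83 after scaling detected probes by their 75th percentile, and 46 and 62 in the deposited log2 table. With the slide column as a block, 86 (20.2%) passed the adjusted threshold, 10.8% of those tested being higher. With 2 arrays per group, the smallest p of an exact permutation test is 0.33.

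All 5 members were detected on all 4 arrays. miR-99a-5p, miR-125b-5p and miR-100-5p, the arms from the chromosome 16 and 9 clusters, were higher in the CL-treated SVFs, by 1.65-fold to 1.92-fold. miR-99b-5p and miR-125a-5p, from the chromosome 17 cluster, differed by less than the spread between arrays. Thus 3 of 5 members were higher at the unadjusted threshold, against 18.8% of all tested miRNAs, and none was lower. The same 3 passed the adjusted threshold with the column block, against 10.8% of all tested miRNAs in that direction. The block did not narrow their standard errors. With it these were 0.194 for miR-99a-5p, 0.199 for miR-125b-5p and 0.178 for miR-100-5p, against 0.180, 0.195 and 0.137 without it. The number of miRNAs that passed with the block also moved with numerical settings, from 86 to 130. The median log2 fold change of the 5 was 0.72, against −0.01 over all 425 tested miRNAs, whose quartiles were −0.33 and 0.34.

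miR-99a-5p read 10.16 on vehicle 1 and 9.76 on vehicle 2 (log2 signal), against 10.85 on CL 1 and 10.94 on CL 2. Both CL arrays lay above both vehicle arrays, and the vehicle arrays stood farther apart than the CL arrays. The log2 fold change was 0.94 (standard error, SE, 0.18, limma adjusted p = 0.0917), or 1.92-fold with a 95% confidence interval of 1.38 to 2.67. It was 0.69 within column 3 and 1.19 within column 4 (limma adjusted p = 0.0285 with the column block).

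miR-125b-5p, which the clusters on chromosomes 9 and 16 can both give, read 11.40 on vehicle 1 and 10.93 on vehicle 2, against 11.99 on CL 1 and 12.06 on CL 2 (log2 signal). Here too vehicle 1 was the higher of the vehicle arrays, and the groups did not overlap. The log2 fold change was 0.86 (SE 0.20, limma adjusted p = 0.102), or 1.81-fold with a 95% confidence interval of 1.26 to 2.60. It was 0.59 within column 3 and 1.13 within column 4 (limma adjusted p = 0.0347 with the column block).

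miR-100-5p, the miR-99a-5p homologue on chromosome 9, read 8.74 on vehicle 1 and 8.53 on vehicle 2, against 9.30 on CL 1 and 9.41 on CL 2 (log2 signal). The groups did not overlap. The log2 fold change was 0.72 (SE 0.14, limma adjusted p = 0.0917), or 1.65-fold with a 95% confidence interval of 1.28 to 2.13. It was 0.56 within column 3 and 0.88 within column 4 (limma adjusted p = 0.0402 with the column block). The unadjusted p of miR-100-5p in limma was 0.00466 without the block and 0.00617 with it, so only its adjusted p fell. Leaving out vehicle 1 gave log2 fold changes of 1.14 for miR-99a-5p, 1.09 for miR-125b-5p and 0.82 for miR-100-5p, and leaving out vehicle 2 gave 0.74, 0.62 and 0.62. Each of these fits leaves 1 vehicle array, so that the spread between vehicle pools is not measured and only the fold changes are given. Without CL 2, miR-100-5p had a log2 fold change of 0.67 and missed the unadjusted threshold. That fit leaves 1 CL array, so the spread between CL pools is not measured.

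miR-99b-5p, which has the seed of miR-99a-5p and miR-100-5p, read 7.29 on vehicle 1 and 7.41 on vehicle 2, against 7.40 on CL 1 and 7.40 on CL 2 (log2 signal). Both CL values lay between the vehicle values. The log2 fold change was 0.05 (SE 0.12, limma adjusted p = 0.785), with a 95% confidence interval of 0.829-fold to 1.29-fold. miR-125a-5p, with the seed of miR-125b-5p, read 8.21 on vehicle 1 and 8.27 on vehicle 2, against 8.22 on CL 1 and 8.26 on CL 2 (log2 signal). Its groups overlapped fully. The log2 fold change was −0.00351 (SE 0.12, limma adjusted p = 0.982), with a 95% confidence interval of 0.806-fold to 1.23-fold. The upper bound for miR-125a-5p was below the lower bounds for miR-99a-5p, miR-125b-5p and miR-100-5p, whereas that for miR-99b-5p was below the lower bound for miR-99a-5p only.

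**Figure D1:**
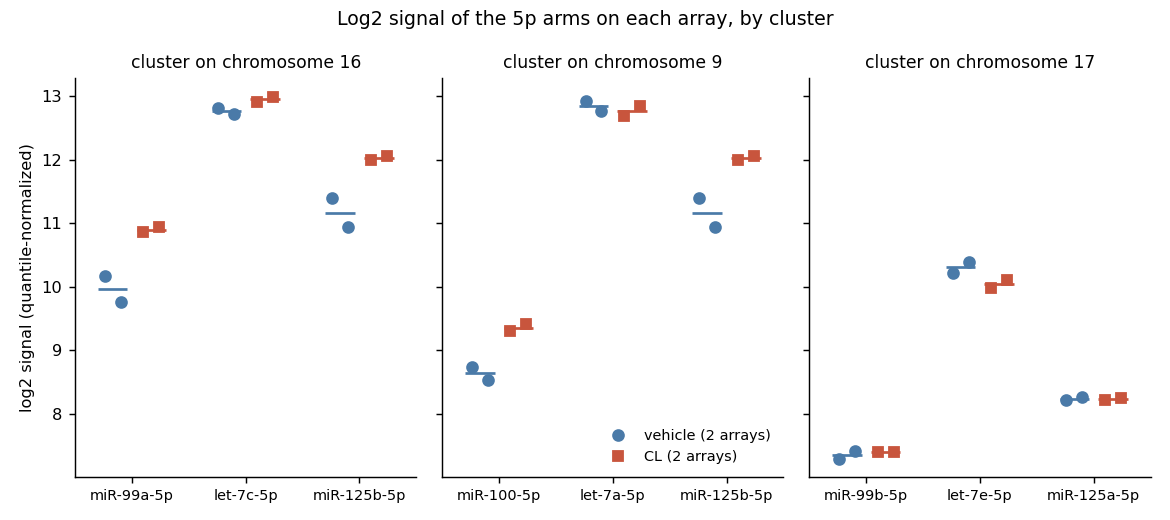
Log2 signal (quantile-normalized, vertical axis) of the 5p arms of each cluster on the vehicle arrays (circles) and CL arrays (squares), with lines at the group means; miR-125b-5p is drawn for both of its clusters. The CL arrays lie above the vehicle arrays for miR-99a-5p, miR-125b-5p and miR-100-5p, and among the vehicle arrays for miR-99b-5p and miR-125a-5p; heights of different arms are not comparable.

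Members of a family were set against each other within each array, which compares how unequally they differed between groups and not which is more abundant. The log2 signal of miR-99a-5p minus that of miR-99b-5p came to 2.87 for vehicle 1 and 2.34 for vehicle 2, and to 3.46 for CL 1 and 3.54 for CL 2, a shift of 0.89. For miR-100-5p minus miR-99b-5p the shift was 0.67, from 1.45 and 1.12 to 1.91 and 2.01. For miR-125b-5p minus miR-125a-5p it was 0.86, from 3.19 and 2.66 to 3.77 and 3.80. In all 3 the CL arrays lay above the vehicle arrays, with no overlap between groups. The exact permutation test gave p = 0.33 for each (two-sided, adjusted p = 0.375 over 18 differences), the smallest p that these arrays allow. Of the 18 differences, 16 had no overlap, but the share over pairs of all tested miRNAs was not computed. Among single miRNAs the CL arrays lay above the vehicle arrays for 38.1% and below for 34.8%. As miR-99b-5p and miR-125a-5p hardly differed between groups, these shifts largely restate the changes of the other arms. Between miR-99a-5p and miR-100-5p, both higher after CL, the shift was 0.22.

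The let-7 arms of the same clusters did not pass the unadjusted threshold in the main test. Under alternatives, let-7c-5p and let-7e-5p passed it without the filter on dim miRNAs. let-7a-5p and let-7e-5p passed it with a linear trend on probe length and composition removed, as described below. let-7e-5p also passed it without vehicle 1, a fit with 1 vehicle array. let-7c-5p, next to Mir99a on chromosome 16, read 12.82 on vehicle 1 and 12.72 on vehicle 2, against 12.91 on CL 1 and 12.99 on CL 2 (log2 signal), a log2 fold change of 0.18 (SE 0.12, limma adjusted p = 0.317). The groups were apart by little, and let-7c-5p was at −0.20 when only its longest probe was used and at −0.13 without normalization between arrays. let-7a-5p, which Mirlet7a-2 between Mir100 and Mir125b-1 can give, read 12.93 and 12.77 on the vehicle arrays against 12.69 and 12.85 after CL (log2 signal) and had a log2 fold change of −0.07 (SE 0.14, limma adjusted p = 0.735). let-7e-5p, between Mir99b and Mir125a, read 10.22 on vehicle 1 and 10.38 on vehicle 2, against 9.98 on CL 1 and 10.10 on CL 2 (log2 signal). Both CL arrays were below both vehicle arrays, with a log2 fold change of −0.26 (SE 0.13, limma adjusted p = 0.217). Over the 9 let-7 family 5p arms compared, none was past the unadjusted threshold in either direction, and their median log2 fold change was −0.03.

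Within the chromosome 16 cluster, miR-99a-5p minus let-7c-5p came to −2.66 for vehicle 1 and −2.97 for vehicle 2, and to −2.05 for CL 1 and −2.05 for CL 2, a shift of 0.76. miR-125b-5p minus let-7c-5p shifted by 0.68. Within the chromosome 9 cluster, miR-100-5p minus let-7a-5p came to −4.19 for vehicle 1 and −4.23 for vehicle 2, and to −3.39 for CL 1 and −3.44 for CL 2, a shift of 0.80, and miR-125b-5p minus let-7a-5p shifted by 0.93. Within the chromosome 17 cluster, miR-99b-5p minus let-7e-5p shifted by 0.31 and miR-125a-5p minus let-7e-5p by 0.26. In all 6 the CL arrays lay above the vehicle arrays, with p = 0.33 in the exact permutation test (two-sided, adjusted p = 0.375). How often pairs of all tested miRNAs separate in this way was not computed. The probes of the let-7 arms are nearly alike in sequence, and signal shared among these arms was not tested. The shift between the non-let-7 members of a cluster was smaller, at 0.08 for miR-99a-5p minus miR-125b-5p, −0.14 for miR-100-5p minus miR-125b-5p and 0.05 for miR-99b-5p minus miR-125a-5p. Probe composition differed between these arms: the longest let-7 probes held 35.0% to 42.1% C and no G, and those of the 5 members 21.1% to 26.3% C and 23.5% to 31.2% G. Across the 425 tested miRNAs, longer probes went with higher log2 fold changes (rank correlation, Spearman, 0.47) and C-rich probes with lower ones (−0.43). With each array's linear trend on length, C share and G share removed, the log2 fold changes were 0.75 for miR-99a-5p, 0.75 for miR-125b-5p and 0.53 for miR-100-5p, with adjusted p from limma of 0.0370, 0.0542 and 0.0537. miR-99b-5p and miR-125a-5p then stood at 0.04 and −0.25, neither past the adjusted threshold. let-7c-5p, let-7a-5p and let-7e-5p stood at 0.06, −0.33 and −0.39 (limma adjusted p = 0.711, 0.103 and 0.106), and let-7a-5p and let-7e-5p were then past the unadjusted threshold.

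**Figure D2:**
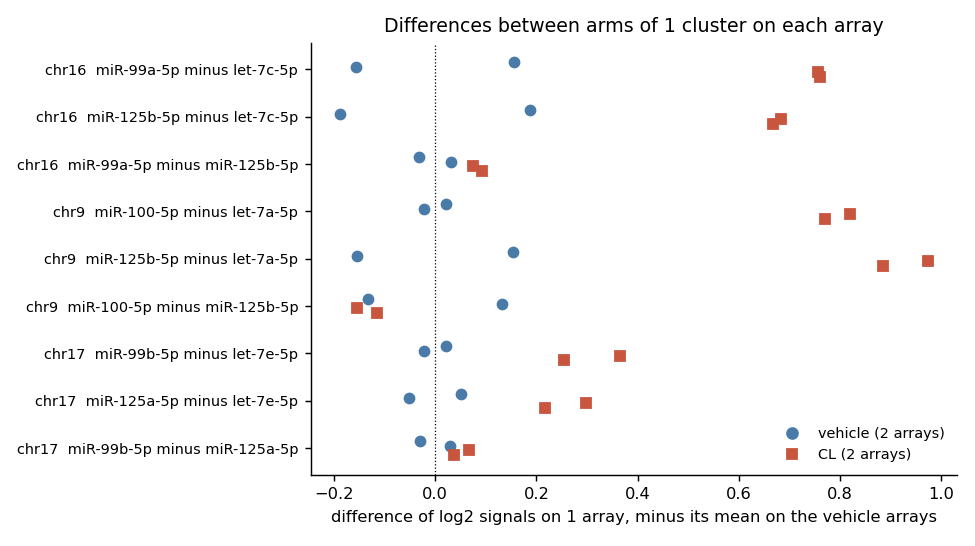
Difference between the log2 signals of arms of 1 cluster on each array, minus its mean on the vehicle arrays (horizontal axis, log2 units), for vehicle (circles) and CL (squares). The members against let-7c-5p and let-7a-5p shifted by 0.68 to 0.93 and those against let-7e-5p by 0.26 and 0.31, while the 3 differences between non-let-7 members shifted by −0.14 to 0.08.

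Of the 9 3p arms of these hairpins, 5 were detected on no array, namely miR-100-3p, miR-125b-1-3p, miR-125b-2-3p, let-7a-2-3p and let-7e-3p. miR-99a-3p, the opposite arm of the miR-99a hairpin, was detected only on the CL arrays, with log2 signals of 4.68 and 4.67 there and of 4.32 and 4.22, not well above background, on the vehicle arrays. With these values it was 1.32-fold higher after CL (limma adjusted p = 0.112), with a confidence interval of 1.06-fold to 1.65-fold. This value is an estimate and not a lower bound. The vehicle signals lay above the dimmest detected miRNA of their arrays (log2 signals of 3.92 and 3.73) and were used as measured. The size rests on the background correction. The log2 fold change was 0.13 with an offset of 50 over local background and 0.23 without correction, against 0.40 here. As miR-99a-3p entered the test only through its CL arrays, the detection filter favoured a higher signal after CL. Its 18-base probe was well above background in 7 and 14 of 20 spots on CL 1 and 2 and in 0 on the vehicle arrays, whereas its 17-base probe was so in no spot of any array. let-7c-1-3p was detected on 3 of the 4 arrays. Its 21-base probe was well above background in 2 and 1 of 10 spots on vehicle 1 and 2, and in 3 and 4 on CL 1 and 2. With this limit, let-7c-1-3p had a log2 fold change of 0.26 (SE 0.11, limma adjusted p = 0.187). miR-99b-3p had one of 0.06 (SE 0.15, limma adjusted p = 0.801).

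miR-125a-3p, the opposite arm of the miR-125a hairpin, read 5.35 on vehicle 1 and 5.81 on vehicle 2, against 5.23 on CL 1 and 5.18 on CL 2 (log2 signal), a log2 fold change of −0.38 (SE 0.19, limma adjusted p = 0.219). Both CL arrays were lower than both vehicle arrays, unlike those of miR-125a-5p, but the gap between vehicle 1 and vehicle 2 exceeded that between vehicle 1 and CL 1. Its probes disagreed: the 16-base probe had a median intensity of 291.8 for vehicle 1 and 549.8 for vehicle 2, and 128.9 for CL 1 and 162.8 for CL 2, and the 14-base probe of 57.7 and 62.2 against 60.5 and 50.2. With the longest probe alone, the log2 fold change was −1.53 (limma adjusted p = 0.114). With all its probes, miR-125a-3p had a log2 fold change of −0.61 without vehicle 1 and of −0.15 without vehicle 2. Each of these fits leaves 1 vehicle array, so only the fold changes are given.

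**Figure D3:**
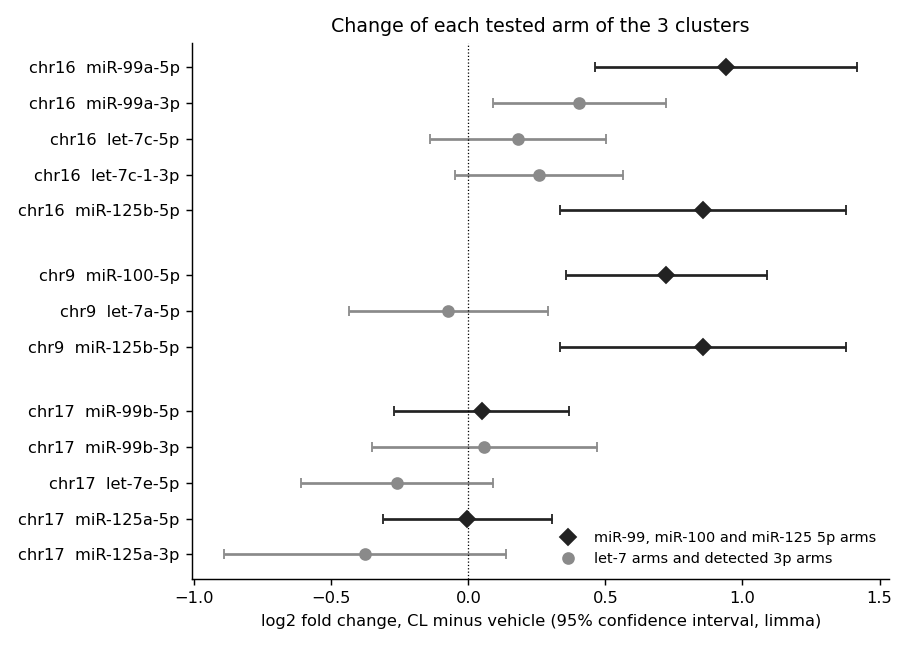
Log2 fold change (CL minus vehicle, horizontal axis) of each tested arm of the 3 clusters, with its 95% confidence interval from limma; diamonds are the miR-99, miR-100 and miR-125 5p arms, circles the let-7 arms and detected 3p arms. The intervals of miR-99a-5p, miR-125b-5p and miR-100-5p lie above 0. That of miR-99a-3p does too, but this arm was detected and tested only through the CL arrays and its estimate rests on the background correction. The intervals of the other arms include 0.

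The order of the arrays was also compared in the spot signals before any correction. Each member was measured by a pair of probes of different length, with 20 spots each per array, all well above background. The longest probes of miR-99a-5p and miR-100-5p are shown because they are alike except at the base in capitals.
mmu-miR-99a-5p probe: cacaagAtcggatctacgg
mmu-miR-100-5p probe: cacaagTtcggatctacgg
The probe of one has a single mismatch with the mature sequence of the other, so that their signals may share RNA of both and the size of each is uncertain. The longest probe of miR-99b-5p has 3 mismatches with either, and the longest probes of miR-125a-5p and miR-125b-5p have 7 and 5 with the other arm. Mismatches were counted without gaps. As miR-125a-5p and miR-125b-5p differ in length, their counts overstate how unlike they are, and shared signal between them was not tested. The 19-base probes of let-7c-5p, let-7a-5p and let-7e-5p are also nearly alike, and shared signal among these arms was not tested either.

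For miR-99a-5p the 19-base probe had a median spot intensity of 2144 for vehicle 1 and 1449 for vehicle 2, and 2842 for CL 1 and 3215 for CL 2. For miR-125b-5p the 17-base probe read 8191 for vehicle 1 and 6032 for vehicle 2, and 10720 for CL 1 and 12580 for CL 2. For miR-100-5p the 19-base probe read 856.0 for vehicle 1 and 622.8 for vehicle 2, and 987.4 for CL 1 and 1173 for CL 2. Taken spot by spot, both CL arrays exceeded both vehicle arrays in 40 of 40 spots for miR-99a-5p, 40 of 40 for miR-125b-5p and 39 of 40 for miR-100-5p. Spots of 1 array share its RNA and are not replicates, and the share over the spots of all miRNAs was not computed. In the normalized signals, the CL arrays lay above the vehicle arrays for 38.1% of all tested miRNAs. For miR-99b-5p the longest probe read 252.0 for vehicle 1 and 250.9 for vehicle 2, and 227.5 for CL 1 and 242.5 for CL 2, and both CL arrays were above in 2 and below in 12 of 40 spots. For miR-125a-5p the longest probe read 559.2 and 525.5 against 443.8 and 498.0, with both CL arrays above in 0 and below in 25 of 40 spots. Before normalization, the median log2 fold change of all tested miRNAs was −0.12. Relative to it, miR-99b-5p stood at 0.04, miR-125a-5p at −0.04, miR-99a-5p at 0.98, miR-125b-5p at 0.87 and miR-100-5p at 0.67.

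**Figure D4:**
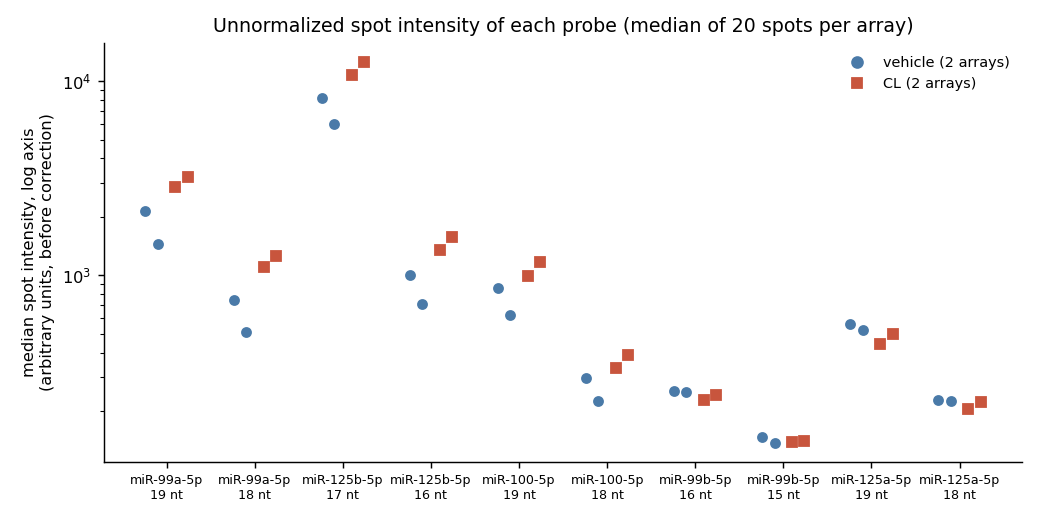
Median intensity of the 20 spots of each probe on each array, before background correction and normalization (vertical log axis, arbitrary units), for both probes of each member; circles are vehicle and squares CL arrays. For both probes of miR-99a-5p, miR-125b-5p and miR-100-5p the CL arrays lie above the vehicle arrays, as with 2842 and 3215 against 2144 and 1449 for the longer miR-99a-5p probe; intensities of different probes are not comparable.

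Among all 425 tested miRNAs, the log2 fold change of miR-99a-5p stood at percentile 94.8, that of miR-125b-5p at 93.4 and that of miR-100-5p at 89.9. miR-99b-5p and miR-125a-5p stood at percentiles 55.8 and 50.6. The relatives of the miR-99 family in sequence, miR-10a-5p and miR-10b-5p from the Hox gene clusters, were lower after CL. miR-10b-5p read 10.30 on vehicle 1 and 10.70 on vehicle 2, against 9.03 on CL 1 and 9.35 on CL 2 (log2 signal), a log2 fold change of −1.31 (SE 0.20, limma adjusted p = 0.0917). miR-10a-5p had a log2 fold change of −0.69 (SE 0.16, limma adjusted p = 0.102). In both, the CL arrays lay below the vehicle arrays, as they did for 34.8% of all tested miRNAs. The CL arrays lay above the vehicle arrays for 3 of 5 members and for 38.1% of all tested miRNAs.

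**Figure D5:**
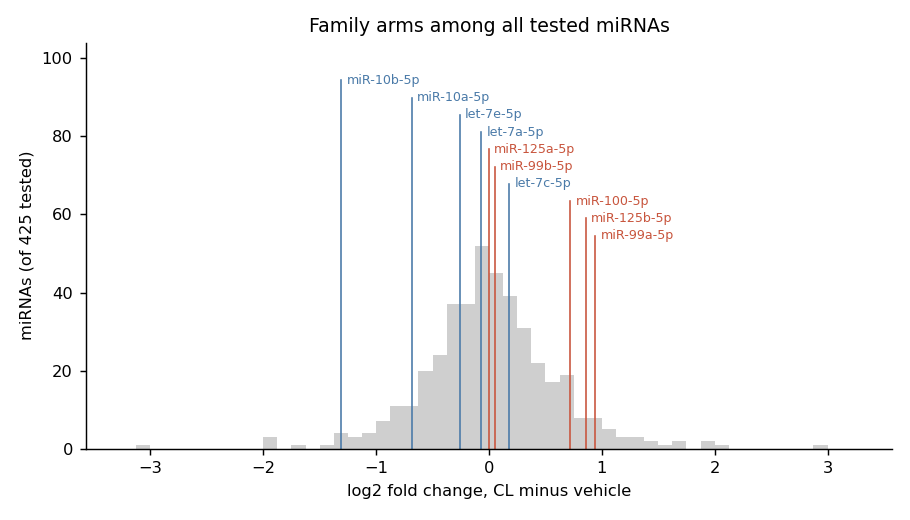
Histogram of the log2 fold changes (CL minus vehicle, horizontal axis) of the 425 tested miRNAs, with lines at the 5 members (red) and at the clustered let-7 arms and miR-10 relatives (blue); line heights only separate the labels. miR-100-5p, miR-125b-5p and miR-99a-5p lie at 0.72, 0.86 and 0.94, past the upper quartile of 0.34, and miR-99b-5p and miR-125a-5p lie near 0.

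The miRNAs closest in pattern were taken by the Euclidean distance between deviations from the mean over the 4 arrays. For miR-125b-5p these were miR-196a-5p (distance 0.0621), miR-99a-5p itself (0.0949) and miR-154-5p (0.0970). For miR-99a-5p the nearest after miR-125b-5p were miR-196a-5p (0.144) and miR-214-3p (0.183). For miR-100-5p they were miR-34a-5p (0.0938), miR-185-5p (0.131) and miR-374c-5p (0.134), and miR-125b-5p was farther at 0.233. miR-125a-5p and miR-99b-5p lay 0.0702 from each other, and miR-195a-3p was within 0.0425 of both. The distance over 4 arrays describes these arrays only.

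Arrays of a cell mixture do not tell more cells of a type from more RNA per cell. Markers of the cell types an SVF can hold are set beside the members, as summed linear signals in arbitrary units. Mesenchymal and mural miRNAs were detected on all arrays in 5 of 5, and their sum was 1863 to 2613 on the vehicle arrays and 3790.0 to 3964 on the CL arrays. Of these, miR-199a-3p, miR-199a-5p and miR-214-3p were higher (log2 fold changes 1.10, 1.15 and 0.95) and miR-145a-5p was lower (−0.75), each past the unadjusted threshold in limma. miR-143-3p, which like miR-145a-5p marks mural cells, read lower on both CL arrays (−0.43, limma adjusted p = 0.158). The sum of miR-199a-3p, miR-199a-5p and miR-214-3p was 1328 to 1978 on the vehicle arrays and 3397 to 3538 on the CL arrays, and that of miR-143-3p and miR-145a-5p was 535.7 to 635.3 and 393.2 to 425.9. miR-199a-3p had log2 signals of 10.68 and 10.08 on the vehicle arrays, vehicle 1 being the higher as for miR-99a-5p, and of 11.43 and 11.53 on the CL arrays. At the same threshold, red cell miRNAs were higher in 3 of 3, with sums of 8204 to 9550.3 and of 14295 to 16907. Leukocyte miRNAs were higher in 2 and lower in 1 of 4, with sums of 1725 to 2299.9 and of 3318 to 3408. Both endothelial arms, of miR-126, were lower, with sums of 14238 to 15504 and of 5149 to 6470. Epithelial miRNAs were undetected in 4 of 5 and their sum was 89.0 to 89.8 and 106.0 to 108.3, liver miR-122-5p was undetected, and no muscle miRNA of 3 passed the threshold. Neuronal miR-9-5p was undetected while miR-124-3p was detected and lower (−1.68). The part of these cell types in the higher signals of miR-99a-5p, miR-125b-5p and miR-100-5p was not tested.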

How the data were processed

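The 4 Agilent mouse miRNA arrays (2 vehicle, 2 CL) were grouped by their labels. The authors deposited scanner files of Feature Extraction 10.7.1.1 with the linear intensity of 52044 spots per array, and a table of processed log2 values, used here as an alternative. The methods of the study name robust multi-array analysis and SAM. Here, with limma 3.58.1 in R 4.3.3, mean spot signals of all spots were corrected with normexp (offset 0). Control and outlier spots were then left out, signals were quantile-normalized between arrays, and median polish on the log2 scale gave 1 value per miRNA and array. A two-sided moderated test (lmFit, eBayes) compared CL with vehicle over 425 miRNAs, those that the scanner software detected on every array of 1 or both groups, and p-values were adjusted by Benjamini-Hochberg. Differences between arms were tested by exact permutation. The members and lists were chosen with earlier results of these data known: the members by name, with their let-7 partners, 3p arms, miR-10 relatives, other let-7 arms, marker lists and the 3 tested miRNAs nearest to each member. The labels' replicate numbers follow the slide column. Same-numbered arrays deviated together with a correlation of only 0.12 across miRNAs, and no source says that the numbers pair the arrays. On 20 sets of simulated arrays with 50 of the 425 miRNAs changed by 1 (log2), the test recovered 61.2% of them after adjustment and 90.3% without it, where 5.61% of the others were also called. The measured arrays behaved otherwise, with 35.1% called without adjustment and none after it, so these rates need not hold for them. The small number of arrays limits every precision given, and quantile normalization assumes like signal distributions in both groups. Alternatives covered background, normalization, spot summary, source of values, filter, test, block, probe composition and leaving out each array.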

Additional observations from a re-analysis of the deposited data

How the results depend on the processing

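miR-99a-5p, miR-100-5p and miR-125b-5p were higher after CL under all 23 alternatives, with log2 fold changes of 0.74 to 1.16, 0.53 to 0.93 and 0.62 to 1.09. They kept an unadjusted p under 0.05 in 23, 21 and 22 of them, the exceptions being median centring and leaving out CL 2 for miR-100-5p and the methods' t-test for miR-125b-5p. With median centring, limma gave every member the same standard error (0.337), so that exception does not reflect the spread of miR-100-5p itself. Past the adjusted threshold in limma were miR-99a-5p without normalization (0.86), with the trend on probe composition removed (0.75) and with the replicate block (0.94), and miR-100-5p (0.72) and miR-125b-5p (0.86) with the block. All 3 also passed it without vehicle 1, but that fit has 1 vehicle array and does not measure the spread between vehicle pools. Leaving out each array gave 0.74 to 1.14, 0.62 to 0.82 and 0.62 to 1.09 for miR-99a-5p, miR-100-5p and miR-125b-5p. Values near 0 turned sign. miR-99b-5p was −0.0867 without normalization and −0.0507 with median centring, and −0.0104 to 0.11 leaving out each array. miR-125a-5p was 0.0115 with the 75th percentile of detected probes, 0.11 with that of all probes, 0.00856 with the mean over spots and 0.010 with the scanner total, and −0.0332 to 0.0262 leaving out each array. let-7c-5p was −0.13 without normalization, −0.0866 with median centring and −0.20 with the longest probe only. let-7a-5p was 0.0624 with the scanner total and −0.15 to 0.00751 leaving out each array, miR-99b-3p −0.0159 with the 75th percentile of detected probes and −0.0871 to 0.20 leaving out each array, and let-7c-1-3p −0.20 with the trend removed. The cause of these turns was not tested. miR-99a-3p was 0.13 with an offset of 50, 0.23 without background correction, 5.99 with the scanner total and 6.23 in the deposited table. Undetected miRNAs stand at a floor there, so that the scanner total and the deposited table do not measure the size of its change. Of all tested miRNAs, 0 passed the adjusted threshold, against 64 without normalization, 44 with median centring, 26 with the scanner total, 7 in the deposited table, 2 with an intensity trend, 31 with the trend removed, 1 with outlier spots left out on all arrays (added after seeing the data) and 86 with the replicate block. The block count was 130 with a tighter median polish, so that it depends on numerical settings. Without the block, the count was 229 without vehicle 1, 1 without vehicle 2, 21 without CL 1 and 31 without CL 2. At the unadjusted threshold 149 passed, against 91 with median centring, 60 with SAM, 52 with the methods' t-test and 61 to 262 leaving out each array. Signals near background limit the 3p arms.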
